A study of Rattus norvegicus with 28 samples.

Results

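The genes described here encode proteins of the myelin sheath and regulators and surface markers of the oligodendrocyte lineage in the rat hippocampus. They were 9 genes chosen by name. Mbp, Mog, Mag and Mobp encode myelin proteins, Olig1, Olig2 and Sox10 encode transcription factors of the lineage, and Cspg4 (NG2) and Pdgfra (the PDGF receptor alpha) encode surface proteins of its progenitors. Probes were found through the transcript accession that each carries. The 9 genes held 13 of the 30367 non-control probes of the array, and they were 9 of 15637 genes that could be named. Of the 13 probes, 12 were above background on all 14 expression arrays, so no gene entered through a group in which it was high, and each of the 9 genes had such a probe. The second Olig2 probe was above background on no array and is not used further. No probe of the 9 genes was saturated.

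All animals were adult male Sprague-Dawley rats that were anesthetized and surgically prepared for parasagittal fluid-percussion traumatic brain injury (TBI), a model in which a fluid pulse strikes the exposed dura. Sham rats (n = 2) were prepared but not injured. TBI rats (n = 3) were injured. TBI+Imipramine, TBI+Prozac and TBI+Zoloft rats (n = 3 each) were injured and received the tricyclic antidepressant imipramine or the serotonin reuptake inhibitors fluoxetine (Prozac) or sertraline (Zoloft) 1 h after injury. The study's methods name a vehicle treatment, and the labels do not say which rats received it. Whole hippocampus was collected 24 h after injury, and its total RNA was read on Agilent arrays with 1 colour, of which some measured messenger RNAs and others miRNAs.

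Oligodendrocytes wrap axons in myelin, a compacted membrane whose inner faces are held together by myelin basic protein, whose outermost layer carries Mog and whose innermost layer, facing the axon, carries Mag. They arise from progenitors that carry NG2 and the PDGF receptor alpha, divide in response to PDGF and persist in the adult brain. Olig2 and Sox10 act through the lineage, and mature cells lose the progenitor markers as the myelin genes rise. Pericytes also carry NG2, fibroblasts carry the PDGF receptor alpha, and Schwann cells of peripheral nerve share Mbp, Mag and Sox10. In RNA from whole tissue, fewer cells of a type and less RNA per cell cannot be told apart.

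Levels below are log2 ratios of a probe's brightness to a reference brightness of its own array, namely the 75th percentile among those probes that rose above background there. Such a level serves to compare arrays and not genes, because probes differ in brightness for the same amount of RNA. A gene with several probes is represented by its brightest. Differences were tested with limma across all 17322 probes that passed the filter on dim probes, and a gene is called when its Benjamini-Hochberg adjusted p is below 0.05. Between 14676 and 18196 probes per array were above background. TBI replicate 1 had the fewest and was the lowest array of its group for 81.9% of all probes. The TBI arrays and TBI+Prozac replicate 1 lay on a common slide, the other 8 arrays of drug-treated rats on a second slide, and both Sham arrays on a slide of their own that was scanned on another day. Slide and sham surgery therefore cannot be told apart. The arrays of a group came from different rats, so p-values measure the spread between rats.

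Among the myelin proteins, Mobp was lower after injury and Mbp and Mog had lower values that did not pass the test. Mobp encodes a small basic protein of the compact sheath. Its level was 0.80 and 1.46 in the Sham rats and −0.86, 0.58 and −0.33 in the TBI rats. Every TBI array lay below both Sham arrays, although TBI replicate 2 came close to the lower of them. The difference was −1.33 (SE 0.38, 95% interval −2.17 to −0.50), which is a level 0.397 times that of Sham, with an adjusted p of 0.0334. Mobp was the only one of the 9 genes called in this comparison. For comparison, 16.6% of all probes tested were called between TBI and Sham, 8.32% as lower and 8.3% as higher in TBI. The Mobp call was lost without Sham replicate 1 (adjusted p = 0.0596), Sham replicate 2 (0.252), TBI replicate 1 (0.0837) or TBI replicate 3 (0.0692). The second Mobp probe read −0.43 and 0.13 in Sham and −0.99, −0.34 and −0.19 in TBI, groups that overlapped, with a difference of −0.36 (SE 0.32, adjusted p = 0.489).

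Mbp encodes the protein that joins the cytoplasmic faces of the myelin membrane. Its level was 5.98 and 6.14 in Sham and 5.17, 5.79 and 5.91 in TBI, and the groups did not overlap. The difference of −0.44 (SE 0.23, 95% interval −0.93 to 0.05) did not pass the test (adjusted p = 0.211). A dimmer Mbp probe against another transcript gave −0.37 (SE 0.18, adjusted p = 0.190). Mog, a glycoprotein of the outer myelin surface, read 1.76 and 2.18 in Sham and 0.91, 1.504 and 1.61 in TBI. Again no TBI array reached a Sham array, and the difference of −0.63 (SE 0.27, 95% interval −1.21 to −0.05) had an adjusted p of 0.134. The 3 genes Mbp, Mog and Mobp were those of the 9 in which all TBI arrays lay below both Sham arrays, an arrangement that 21.3% of all probes showed.

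Mag, which sits on the myelin membrane next to the axon, differed between the 2 Sham rats by more than between the groups. It read 1.75 and 2.61 in Sham and 1.71, 2.34 and 2.19 in TBI, a difference of −0.10 (SE 0.27, adjusted p = 0.845). Its dimmer probe read −1.14 and −0.73 in Sham and −1.67, −1.21 and −1.20 in TBI, without overlap, and the difference was −0.43 (SE 0.20, adjusted p = 0.162). Across the 14 arrays the 2 probes of a gene correlated with r = 0.752 for Mag, 0.596 for Mbp and 0.537 for Mobp, so the choice of probe bears on each value given here.

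**Figure D1:**
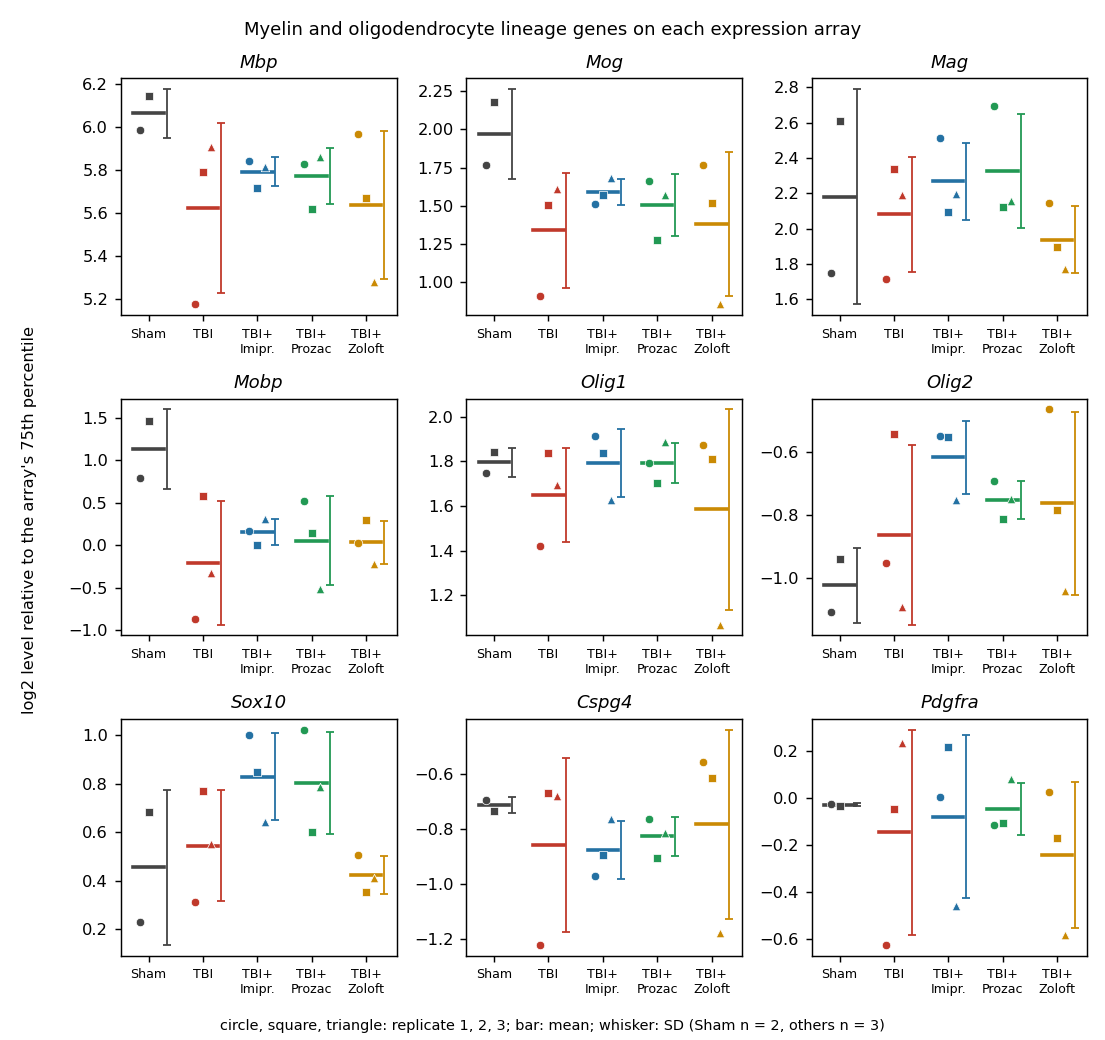
Log2 level of the brightest probe of each of the 9 genes on every expression array, by group, with the scale set for each gene. Points are arrays (circle, square and triangle for replicates 1, 2 and 3), horizontal bars are group means and whiskers are SD (Sham n = 2, other groups n = 3), and Imipr. stands for imipramine. Mobp and Mbp lie below both Sham arrays on all 12 injured arrays, and TBI replicate 1 and TBI+Zoloft replicate 3 are the low points of many panels.

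None of the 3 transcription factors of the lineage was called after injury. Olig1 read 1.75 and 1.84 in Sham and 1.42, 1.84 and 1.69 in TBI, a difference of −0.15 (SE 0.22, 95% interval −0.62 to 0.33). Olig2 read −1.11 and −0.94 in Sham and −0.95, −0.54 and −1.09 in TBI, and Sox10, which drives myelin genes directly, read 0.23 and 0.68 in Sham and 0.31, 0.77 and 0.55 in TBI. Both had overlapping groups and differences above 0, of 0.16 (SE 0.19, 95% interval −0.25 to 0.57) for Olig2 and 0.09 (SE 0.19, 95% interval −0.32 to 0.50) for Sox10. The adjusted p of the 3 factors lay between 0.615 and 0.795. With 2 and 3 arrays, changes within these intervals are not excluded. The intervals are not adjusted for the number of probes, so a larger difference may also go uncalled, as that of Mog did.

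The progenitor markers likewise overlapped between groups. Cspg4 read −0.70 and −0.73 in Sham and −1.22, −0.67 and −0.68 in TBI, where replicate 1 stood apart, and the difference was −0.14 (SE 0.21, 95% interval −0.59 to 0.30). Pdgfra read −0.02 and −0.03 in Sham and −0.63, −0.05 and 0.23 in TBI. Its Sham arrays were almost equal while the TBI arrays spread widely on both sides of them, and the difference was −0.12 (SE 0.26, 95% interval −0.68 to 0.45). Over the 9 genes the median difference between TBI and Sham was −0.14, beside a median of 0.0015 over all probes.

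The next question was whether a drug given after injury moved these genes away from their level in injured rats without a drug. None of the 9 genes was called for any drug against TBI. The limma test called 0 of 9 for imipramine (smallest adjusted p = 0.360), where 2.85% of all probes were called, 0 of 9 for Prozac (0.634), where 0.00577% were called, and 0 of 9 for Zoloft (0.805), where 1.38% were called. By its brightest probe no gene of the 9 reached an unadjusted p under 0.05 in these comparisons. The dimmer Mag probe did reach it for imipramine (unadjusted p = 0.00562, adjusted p = 0.0996). The methods' t-test called 0 of the 9 genes, beside 2438, 1091 and 1406 of all 17322 probes for imipramine, Prozac and Zoloft. The median difference of the 9 genes was 0.19 for imipramine, 0.15 for Prozac and 0.01 for Zoloft, and the median of all probes was 0.20, 0.15 and 0.01 in the same order. When arrays were scaled by the 75th percentile over all probes in place of those above background, the medians of all probes became −0.02, −0.02 and −0.00094.

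**Figure D2:**
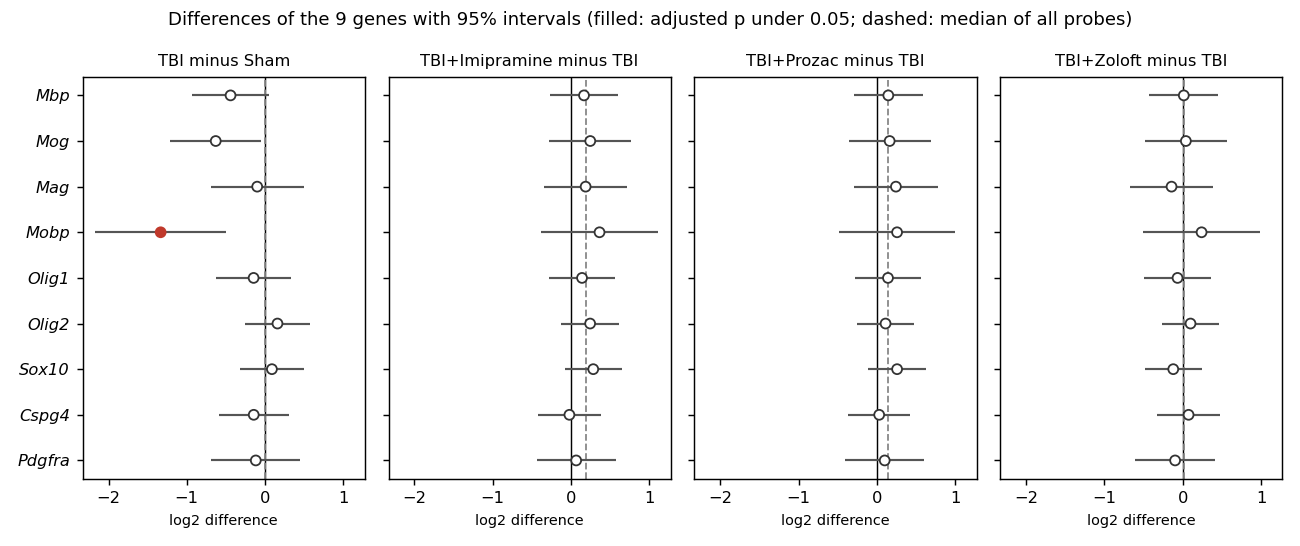
Log2 difference of each of the 9 genes between TBI and Sham and between each drug and TBI, with 95% intervals from limma. Filled points have an adjusted p under 0.05 and the dashed line is the median of all probes tested. Mobp in TBI minus Sham is the only filled point, and every interval of a drug against TBI includes 0.

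Mobp read 0.17, 0.0038 and 0.31 in TBI+Imipramine rats, 0.52, 0.15 and −0.51 in TBI+Prozac rats and 0.03, 0.29 and −0.22 in TBI+Zoloft rats. On this probe all 9 arrays lay below both Sham arrays and within the range of the TBI arrays. The group means lay between Sham (1.13) and TBI (−0.21), at 0.16, 0.05 and 0.04, and neighbours in this order did not differ past the threshold. Against TBI the differences were 0.37 (SE 0.34, 95% interval −0.38 to 1.11) for imipramine, 0.26 (−0.49 to 1.004) for Prozac and 0.24 (−0.50 to 0.99) for Zoloft. The second Mobp probe gave another order. It read 0.13, −0.22 and −0.07 with imipramine, above the lower Sham array (−0.43) on all 3, and 0.02, −0.60 and −0.36 with Prozac and −0.33, −0.53 and −1.35 with Zoloft. Its difference from Sham was 0.10 for imipramine (SE 0.32), −0.16 for Prozac and −0.58 for Zoloft, and its Zoloft mean lay below that of TBI (difference −0.23).

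Against Sham, Mobp was lower by −0.97, −1.07 and −1.09 in the imipramine, Prozac and Zoloft groups, with adjusted p-values of 0.0875, 0.0801 and 0.115, so no group passed the threshold. None of the other 8 genes passed it either, so that limma called 0 of 9 in each drug group. The share of all probes called by limma was 23.4% for imipramine, 14.9% for Prozac and 5.95% for Zoloft against Sham. At an unadjusted p under 0.05 there were 1 with imipramine, 1 with Prozac and 2 with Zoloft. The share of all probes under that unadjusted limit was not computed. The methods' t-test called 3, 1 and 1 of the 9 genes, beside 5694, 4134 and 2278 of all 17322 probes. Mbp read 5.84, 5.71 and 5.81 with imipramine, 5.83, 5.62 and 5.86 with Prozac and 5.96, 5.67 and 5.28 with Zoloft. By the brightest probes all 12 injured arrays thus lay below both Sham arrays for Mbp, if narrowly for TBI+Zoloft replicate 1, and for Mobp, and for no other gene of the 9. This arrangement occurred in 7.59% of all probes. It was not shared by the second probes of these genes: that of Mbp read −3.63 on TBI+Prozac replicate 3, above the −3.67 of Sham replicate 2, and that of Mobp overlapped as given above.

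Mog read 1.51, 1.57 and 1.68 with imipramine, 1.66, 1.28 and 1.57 with Prozac and 1.77, 1.52 and 0.86 with Zoloft. The first Zoloft array lay just above the lower Sham array, while the third was the lowest of all 14. Mag read 2.51, 2.10 and 2.20 with imipramine, 2.69, 2.12 and 2.15 with Prozac and 2.14, 1.90 and 1.77 with Zoloft. On these probes no drug group separated from TBI for either gene, and the differences from TBI lay between −0.14 and 0.25. The dimmer Mag probe did separate. It read −0.60, −0.96 and −0.76 with imipramine and −0.84, −1.16 and −1.06 with Prozac, all above the TBI arrays (−1.67, −1.21 and −1.20), while the Zoloft arrays (−0.94, −1.20 and −1.29) overlapped them. Its differences from TBI were 0.59 for imipramine (SE 0.17, 95% interval 0.21 to 0.97, adjusted p = 0.0996), 0.34 for Prozac (adjusted p = 0.544) and 0.22 for Zoloft (adjusted p = 0.612), none of them called. The median of all probes was itself 0.20 above TBI with imipramine and 0.15 with Prozac. How many of all probes separated from TBI in this way was not computed.

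Sox10 gave the smallest p among the drugs. It read 0.999, 0.85 and 0.64 with imipramine, 1.02, 0.60 and 0.78 with Prozac and 0.51, 0.35 and 0.41 with Zoloft, so that every Zoloft array lay below every array of the other drugs. The share of all probes with such a separation was not computed. Sox10 was 0.41 (imipramine) and 0.38 (Prozac) above Zoloft, where the median of all probes was itself 0.18 and 0.11 above it. The limma F test over the 3 drugs gave an adjusted p of 0.240 for Sox10, and 0 of 9 genes passed that test (smallest unadjusted p = 0.0576), which 3.18% of all probes passed. Imipramine against TBI gave 0.29 (SE 0.17, 95% interval −0.08 to 0.65) and Prozac against TBI 0.26 (−0.11 to 0.63), beside −0.12 (−0.49 to 0.25) for Zoloft.

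Olig1 ranged from 1.62 to 1.91 with imipramine, from 1.70 to 1.88 with Prozac and from 1.07 to 1.88 with Zoloft. Olig2 ranged from −0.75 to −0.55, from −0.81 to −0.69 and from −1.04 to −0.46 in the same order. Olig2 was the gene with its lowest group mean in Sham (−1.02), and all imipramine and Prozac arrays lay above both Sham arrays. The differences from Sham were 0.41 (adjusted p = 0.143) and 0.27 (adjusted p = 0.371), neither called. The median of all probes was itself 0.18 and 0.14 above Sham in these groups. The share of all probes with such a separation was not computed. Cspg4 means differed least, from −0.88 with imipramine to −0.71 in Sham. All its imipramine and Prozac arrays lay narrowly below both Sham arrays, and the differences of −0.16 and −0.11 were not called. Thus 5 of the 9 genes did not overlap with Sham in each of these groups: Mbp, Mog, Mobp and Cspg4 lay below and Olig2 above. The share over all probes was not computed. Pdgfra means ran from −0.24 with Zoloft to −0.03 in Sham, and for Pdgfra no group separated from the others.

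Because slides differ between groups, the drug comparisons were also read within slides. On the slide of the TBI arrays, TBI+Prozac replicate 1 lay within the range of the 3 TBI arrays for 6 of the 9 genes and above it for Mog, Mag and Sox10. With slide as a fixed term, which leans on that array alone, 0 of the 9 genes were called for any drug against TBI.

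Arrays of a group differed from each other. TBI replicate 1 was the lowest TBI array for 8 of the 9 genes, with a median deviation from the group mean of −0.37, and all probes on that array deviated by a median of −0.23. Its reference brightness was 2228, beside 1698 and 1465 on TBI replicates 2 and 3. How much of its low levels came from this scaling was not tested. TBI+Zoloft replicate 3 was also the lowest of its group for 8 of the 9 genes, with a median deviation of −0.34. That array showed no general deficit: the median deviation of all its probes was 0.02, and it was the lowest of its group for 34.6% of them. What distinguished this array was not tested. Between them these 2 arrays were the lowest of the 12 injured arrays for all of the 9 genes except Olig2, whose lowest value was in TBI replicate 3. Without TBI replicate 1, 0 of 9 genes were called between TBI and Sham. Without TBI+Zoloft replicate 3 the counts were unchanged, with Mobp called between TBI and Sham and no gene called in the other comparisons.

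**Figure D3:**
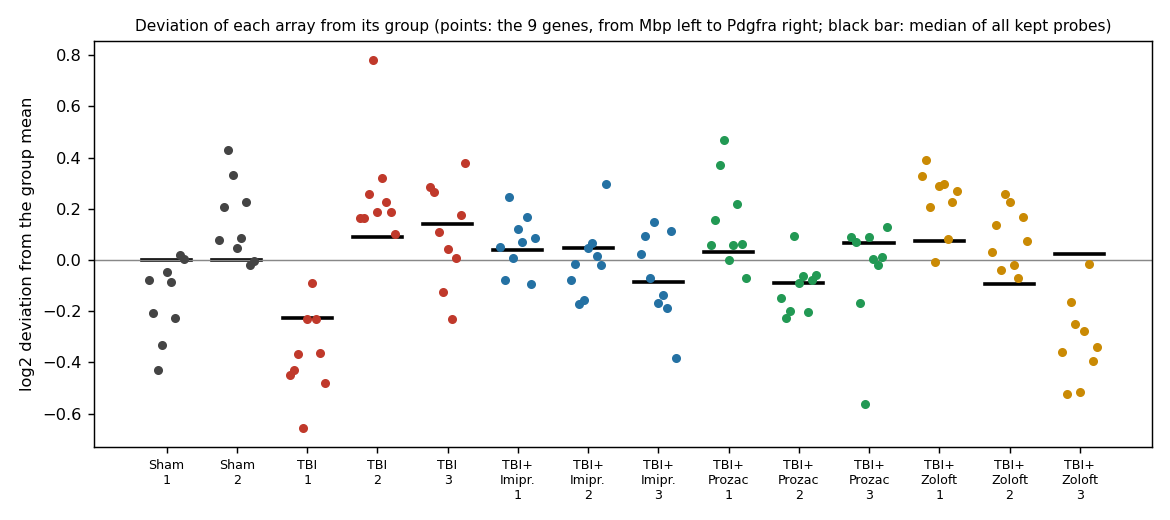
Log2 deviation of the 9 genes from their group mean on each expression array. Points are genes in the order Mbp, Mog, Mag, Mobp, Olig1, Olig2, Sox10, Cspg4, Pdgfra, coloured by group (Imipr., imipramine), and black bars are the median deviation of all probes that passed the filter. On TBI+Zoloft replicate 3 the 9 genes lie below 0 (median −0.34) while the bar lies at 0.02, and on TBI replicate 1 both are low.

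The 9 genes varied together across arrays. The 36 pairwise correlations over the 14 arrays were all above 0, from 0.03 (Mobp with Olig2) to 0.96 (Mbp with Mog), with a median of 0.54. After group means were removed the median was 0.55. The points share array, slide, RNA extract and scaling, and no p is given. Some arrays were low for most probes, as TBI replicate 1 was for 81.9% of them. Correlations among other genes were not computed, so the values are not shown to be particular to the 9 genes. Mag followed Sox10 (r = 0.85 over arrays, 0.90 after removing group means), and Cspg4, a progenitor marker, followed Mbp (0.80 and 0.90).

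Among 10188 genes with a value on all arrays, those most like the mean of Mbp, Mog, Mag and Mobp were Pip4k2a (r = 0.934), Fah (0.931), Tspan2 (0.913), Spata6l (0.910), Abca2 (0.893), Akr7a3 (0.891), T2 (0.886), Septin4 (0.880), Wdr73 (0.876) and Nudt16l1 (0.874), over 14 arrays. Tspan2 alone of these is on the myelin list used below. The mean of Olig1, Olig2 and Sox10 was most like Cfap119, Hirip3, Ccdc17, Spart and Kank1 (0.902 to 0.928). Cspg4 was most like Tmem276, Cables1, Ctxn3, Pc and Tmem14a (0.848 to 0.892), and Pdgfra most like Abhd14a, Bbs10, Smarca2, Klhl9 and Senp7 (0.909 to 0.939). None of these is on a lineage list, and the patterns of the myelin proteins, the factors and the 2 progenitor markers thus shared no gene among their leading ones.

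The wider lineage was read from 5 lists of 96 symbols in all, the 9 genes included, of which 80 had a usable probe. Between TBI and Sham 4 were called higher and 4 lower, which is 10% of those measured beside 16.6% of all probes. The called genes were Mobp, Cntn2, Gpr17 and Bcan, which fell, and Cd9, Ptprz1, Fgf2 and Pdgfc, which rose. They came from different stages of the lineage, and several are also made by other cells: Fgf2 and Ptprz1 are expressed by astrocytes, Cd9 by many cell types and Cntn2 by neurons.

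Of the mature myelin list, 34 of 35 symbols were measured, Trf being another name of the measured Tf. Cntn2 (contactin-2, an adhesion protein at the juxtaparanode) fell by 0.79 (SE 0.21, adjusted p = 0.0254), a call that was lost without Sham replicate 1 (adjusted p = 0.145), Sham replicate 2 (0.0876), TBI replicate 1 (0.0568) or TBI replicate 2 (0.0777). Cd9 (a tetraspanin) rose by 1.07 (SE 0.21, adjusted p = 0.00604), which was lost without Sham replicate 1 (adjusted p = 0.0749). The remaining 31 were not called. Among the 34, 27 had values below 0 and the median was −0.38, beside 0.0015 for all probes. This median came to −0.12 without Sham replicate 2, to −0.56 without Sham replicate 1 and to −0.22 without TBI replicate 1, and in each of these settings no gene of the list was called lower. Cnp, an enzyme of the non-compact myelin, read 0.21 and 0.80 in Sham and 0.07, 0.46 and 0.62 in TBI, a difference of −0.12 (SE 0.31, adjusted p = 0.830), and its groups overlapped.

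Gpr17, a receptor of newly formed oligodendrocytes that is lost as they mature, was lower after injury whichever array was left out. It read −4.85 and −4.79 in Sham and −6.32, −5.86 and −6.08 in TBI, a difference of −1.27 (SE 0.19, adjusted p = 0.00112). With an array left out it was called each time (adjusted p from 0.000546 to 0.0130) and in 10 of 11 other settings. The probe is dim: it was above background on both Sham arrays and on 1 of 3 TBI arrays. It passed the filter on dim probes only through the Sham and imipramine groups, where its levels were highest. Its calls between these groups and TBI are therefore tied to that selection. The size of the fall is uncertain, and with another background correction it was −0.57 or −0.71. The other 6 measured genes of the newly formed list were not called in TBI against Sham.

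With imipramine Gpr17 read −5.11, −5.39 and −5.32, above every TBI array and below both Sham arrays, and it was above background on all 3. Its difference from TBI of 0.82 (SE 0.17, adjusted p = 0.0250) was the only call of a drug against TBI among the 80 genes, which is 1.25% beside 2.85% of all probes. The call was lost without TBI replicate 1 or any of the imipramine arrays (adjusted p from 0.0528 to 0.117), and with scaling over all probes, where the difference was 0.59 (adjusted p = 0.0934). With slide as a fixed term the difference was 1.06 (adjusted p = 0.652). With Prozac Gpr17 read −5.56, −5.89 and −5.71, and with Zoloft −5.80, −5.79 and −5.32, values 0.37 and 0.45 above TBI that were not called (adjusted p = 0.489 and 0.211). It was above background on 2 of 3 Prozac, 1 of 3 Zoloft and 1 of 3 TBI arrays, so these differences between dim groups are uncertain in size. Both groups were called lower than Sham, by −0.90 (adjusted p = 0.00909) and −0.82 (adjusted p = 0.0243), and the imipramine group differed from Sham by −0.45 (adjusted p = 0.101).

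**Figure D4:**
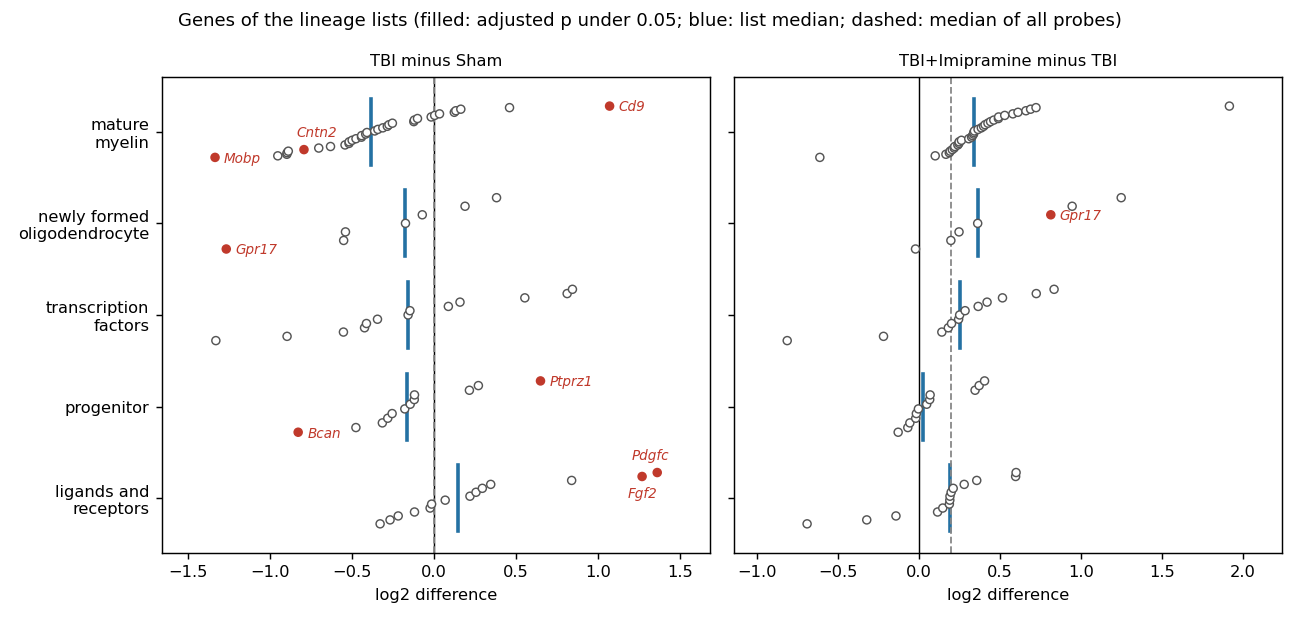
Log2 difference of the measured genes of the 5 lineage lists between TBI and Sham and between TBI+Imipramine and TBI. Filled points have an adjusted p under 0.05, blue bars are list medians and the dashed line is the median of all probes tested. Called genes are few in each list, and the mature myelin median lies at −0.38 on the left and at 0.34 on the right, where all probes have a median of 0.20.

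None of the 13 measured transcription factors of the lineage was called between TBI and Sham, and their median was −0.16. Myrf, the factor that starts myelin gene expression in differentiating cells, read −5.06 and −4.56 in Sham and −5.35, −5.11 and −5.25 in TBI (−0.42, SE 0.22, adjusted p = 0.218), above background on 2 of the 3 TBI arrays. It was 0.73 (adjusted p = 0.0722) above TBI with imipramine and 0.71 (adjusted p = 0.322) with Prozac, and 0.05 with Zoloft. Nkx2-2, a factor of differentiating oligodendrocytes, had no probe that could be named.

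Of 12 measured progenitor genes, Bcan (brevican, a proteoglycan of the extracellular matrix) fell and Ptprz1 (a receptor phosphatase) rose after injury. Bcan read 3.10 and 2.96 in Sham and 1.94, 2.10 and 2.56 in TBI, a difference of −0.83 (SE 0.21, adjusted p = 0.0196). It stayed lower in all 3 drug groups against Sham, by −0.78, −0.72 and −0.89 (adjusted p = 0.0196, 0.0392 and 0.0293), and differed from TBI by at most 0.11 in any of them. The Bcan call between TBI and Sham was lost without Sham replicate 1 (adjusted p = 0.121), Sham replicate 2 (0.0764) or TBI replicate 2 (0.0606). Ptprz1 read −0.08 and −0.07 in Sham and 0.26, 0.62 and 0.85 in TBI, a difference of 0.65 (SE 0.20, adjusted p = 0.0429), and this call was lost with 11 of the 14 arrays left out in turn. Vcan, another proteoglycan of progenitors, differed by 0.27 (SE 0.21, adjusted p = 0.416).

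Among ligands and receptors that act on the lineage, Fgf2 and Pdgfc rose after injury while Pdgfa and Igf1 were not called. Fgf2 read −5.61 and −5.59 in Sham and −4.84, −3.89 and −4.27 in TBI, a difference of 1.27 (SE 0.32, adjusted p = 0.0178), and it was called against Sham in all 3 drug groups too, at 1.47, 1.39 and 1.26. The Fgf2 call in TBI was lost without either Sham array or without TBI replicate 2. Pdgfc was not well above background in Sham, where it read −6.82 and −7.41, and read −6.15, −5.66 and −5.46 in TBI. By the processed signal of the scanner files it was at least 1.52-fold higher in TBI (adjusted p = 0.00334), 1.73-fold with imipramine and 1.72-fold with Prozac. For Sham this took the lowest signal above background on each array, and the bound holds for that signal only. Pdgfc passed the filter on dim probes only through injured groups, where it was higher, so its calls are tied to that selection. The Fgf2 and Pdgfc probes are both dim. With normexp background correction before the 75th percentile the Fgf2 difference was 0.36 and the Pdgfc difference 0.15, neither called. Pdgfa, the ligand of Pdgfra, differed between TBI and Sham by −0.27 (SE 0.17, adjusted p = 0.313) and Igf1, a survival factor for oligodendrocytes, by 0.22 (SE 0.20, adjusted p = 0.487).

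Against Sham, the drug groups added a few calls. With imipramine 7 of the 80 genes were called higher and 3 lower, or 12.5% beside 23.4% of all probes. Apart from Fgf2, Pdgfc and Bcan these were Cd9 (1.65), Cxcr4 (1.44), Tf (0.80), Zfp24 (0.76) and Itpr2 (0.75) as higher, and Efnb3 (−0.97) and Hes5 as lower. Hes5 was above background on both Sham arrays and on only 1 of the 3 imipramine arrays, so the size of its fall (−2.14 as measured) is uncertain. With Prozac 7 were higher and 2 lower, or 11.25% beside 14.9%, namely Cd9 (1.34), Cxcr4 (1.13), Zfp24 (0.87), Itpr2 (0.84) and Ptprz1 (0.82) besides those already given. With Zoloft 1 was higher and 4 were lower, or 6.25% beside 5.95%, and Mal, a proteolipid of compact myelin, fell by 1.36 (SE 0.32, adjusted p = 0.0303). Hes5, a Notch target that holds back differentiation, was above background on both Sham arrays and on no Zoloft array. By the processed signal it was at least 3.26-fold lower with Zoloft (adjusted p = 0.0428). The Mal call was lost without either Sham array or without TBI+Zoloft replicate 3, and that of Hes5 was lost with 10 of the 14 arrays left out in turn (adjusted p up to 0.179).

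Cnp and Mal shared the spread of the Zoloft group. Cnp read 0.71, 0.74 and 0.49 with imipramine, 0.83, 0.50 and 0.59 with Prozac and 0.25, −0.32 and −1.02 with Zoloft. Mal read 0.64, 0.24 and 0.37, then 0.83, 0.24 and 0.11, then 0.23, 0.05 and −0.87 in the same order. TBI+Zoloft replicate 3 held the lowest value of all 14 arrays for both genes, and the Zoloft group differed from TBI by −0.75 for Cnp (adjusted p = 0.207) and −0.41 for Mal (adjusted p = 0.556). The summed level of the mature myelin list, to which Mbp contributes most, was 97.2 on TBI replicate 1 and 100.05 on TBI+Zoloft replicate 3, and between 131.9 and 171.4 times the 75th percentile on each of the other 12 arrays.

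**Figure D5:**
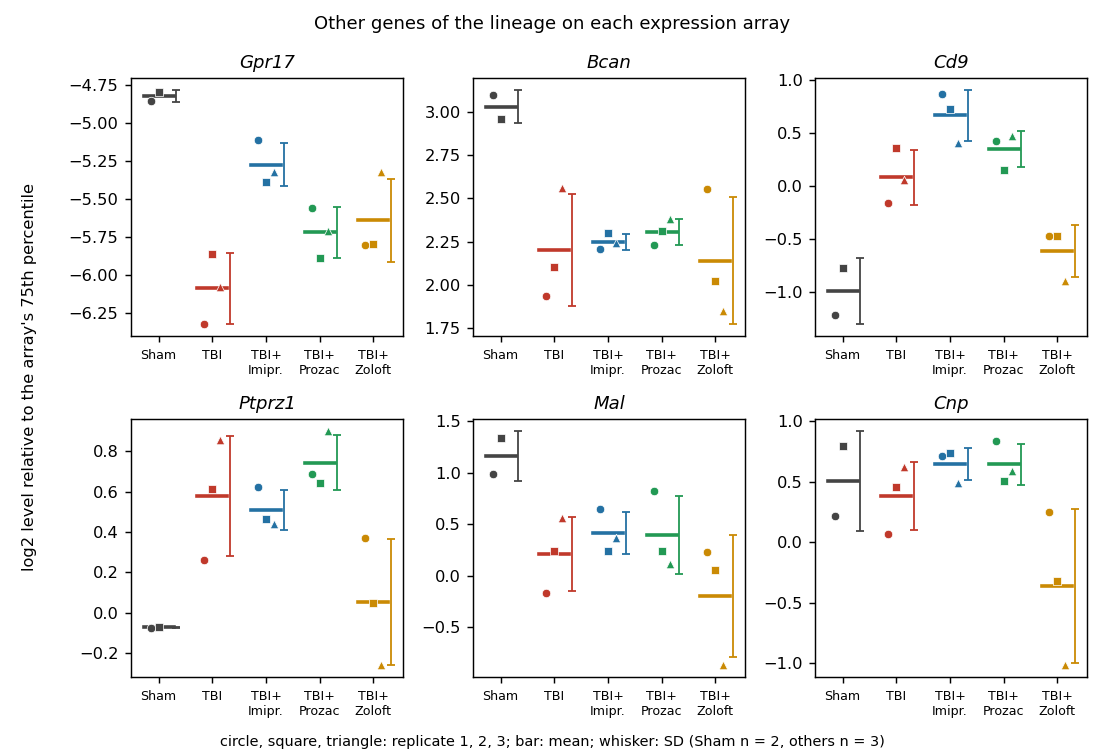
Log2 level of Gpr17, Bcan, Cd9, Ptprz1, Mal and Cnp on every expression array, by group, with the scale set for each gene. Points are arrays, horizontal bars are group means and whiskers are SD (Sham n = 2, other groups n = 3), and Imipr. stands for imipramine. Gpr17 and Bcan lie below both Sham arrays on all injured arrays, and the lowest Mal and Cnp values shown are those of TBI+Zoloft replicate 3.

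Markers of other cells were read from 10 lists. For Schwann cells, 4 of 5 markers did not pass the filter, and among these Prx and Ncmap were above background on no array. The measured one, Pmp2, a lipid-binding myelin protein, was 0.99 above Sham in TBI (adjusted p = 0.0781) and 1.01 with Prozac (adjusted p = 0.0759), and it was called higher than Sham with imipramine (1.88, adjusted p = 0.00328) and Zoloft (1.32, adjusted p = 0.0496). Pericyte and smooth muscle markers, which bear on Cspg4, were all measured, with summed levels of 1.31 to 1.49 in Sham, 1.25 to 1.501 in TBI and 1.35 to 2.23 in the drug groups. The 5 fibroblast markers, which bear on Pdgfra, summed to 0.63 to 0.70 in Sham, 0.98 to 2.12 in TBI and 0.54 to 2.84 with a drug, and none was called in TBI against Sham. Microglia and macrophage markers summed to 3.23 to 4.05 in Sham and 4.96 to 5.59 in TBI, with 2 of 7 called higher, and 1 of 3 endothelial, 1 of 10 mural and 1 of 6 astrocyte markers were called higher too, beside 8.3% of all probes. Of the neuronal markers 1 of 6 was called lower, beside 8.32%, and no blood marker was called. Against Sham, 5 of 7 microglia and macrophage markers were called higher with imipramine, 4 with Prozac and 2 with Zoloft, where 23.4%, 14.9% and 5.95% of all probes were called in either direction. Astrocyte markers summed to 24.3 to 28.1 in Sham and 20.3 to 32.6 in TBI. Of 5 markers of hippocampal neurons 4 were above background on all arrays, and Prox1, a marker of dentate granule cells, was above background on none. The 4 summed to 3.86 to 4.15 on the Zoloft arrays and to 4.56 to 6.17 on all other arrays. Within the Zoloft group the order was opposite to that of myelin. On replicates 1, 2 and 3 these markers summed to 3.86, 4.07 and 4.15, and the mature myelin list to 160.8, 132.9 and 100.05. The median difference of the 4 neuronal markers between Zoloft and TBI was −0.42 with none called. With Zoloft 1 (Neurod6) was called lower than Sham, beside 5.95% of all probes in either direction. Another comparison, with Prozac, had 2 (Neurod6 and Zbtb20) called lower with Zoloft, beside 639 of 17322 probes in either direction. Compared with imipramine, 1 of the 4 was called lower with Zoloft, beside 917 of 17322. Choroid plexus markers varied far more, from 0.67 to 29.4 in Sham, 0.72 to 28.8 in TBI and 0.26 to 106.3 with a drug, with 4 of 8 measured. Enpp2 of the myelin list is also abundant in choroid plexus, and its difference between imipramine and TBI was 1.92 (SE 0.85, adjusted p = 0.239). The part of these cells in the values of the 9 genes was not tested.

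Several miRNAs are known for their place in this lineage. miR-219 and miR-338 rise as oligodendrocytes differentiate and repress factors that keep progenitors dividing, Pdgfra among the targets of miR-219. The mature sequences of the 3 are shown because the results on the lineage's miRNAs turn on them, with the seed, bases 2 to 8, in capitals. They are from RefSeq, build GRCr8, and lie on the minus strand at chr3:33516561-33516581, chr3:33516517-33516538 and chr10:105796345-105796367.
miR-219a-5p: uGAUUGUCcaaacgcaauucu
miR-219a-2-3p: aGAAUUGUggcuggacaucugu
miR-338-3p: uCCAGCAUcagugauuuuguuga
The 3 have different seeds, and the first and second come from the arms of a common hairpin.

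Only 0 and 1 miRNA probes were above background for the 2 Sham rats, so miRNAs were compared among the 12 injured rats only, on which 187 to 406 of 1806 probes were above background and 265 were kept. Of 7 miRNAs listed for the lineage 6 were kept, all but miR-125a-3p. miR-219a-5p read 0.99, 1.94 and 1.52 in TBI, 0.87, 2.00 and 1.13 with imipramine, 2.43, 1.43 and 2.10 with Prozac and 2.29, 2.47 and 1.36 with Zoloft. The groups overlapped, and arrays of a group lay up to about 1 log2 unit apart. The differences from TBI were −0.15, 0.50 and 0.55, each with a standard error of 0.49, as limma here estimated the same variance for all probes. miR-338-3p differed by −0.44, 0.39 and 0.33, and miR-219a-2-3p by −0.36, 0.43 and 0.26.

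The median over all miRNA probes had the same signs, at −0.44 for imipramine, 0.37 for Prozac and 0.41 for Zoloft. miR-138-5p (−0.49, 0.41 and 0.35), miR-23a-3p (−0.08, 0.51 and 0.60) and miR-9a-5p (−0.07, 0.74 and 0.72) gave similar values, and the limma test called none of the 6 in any comparison (adjusted p from 0.655 to 0.910, unadjusted p of at least 0.128). In the authors' series table, the only source with Sham values, miR-219a-5p was 3.27 and 3.56 in Sham and 3.14 to 3.54 in TBI on a log2 scale, and miR-338-3p was 2.86 and 3.41 in Sham and 2.93 to 3.31 in TBI. These values overlapped. miR-9a-5p did not overlap in that table, at 4.57 and 4.65 in Sham and 4.12 to 4.26 in TBI, and its drug arrays, from 4.32 to 4.79, all lay above the TBI arrays. The table's values were not tested. Relative to TBI they gave another direction than the scanner files for 5 of the 6 miRNAs with imipramine, for 3 of 6 with Zoloft and for none with Prozac. For imipramine the table's difference was 0.30 for miR-219a-5p, 0.01 for miR-338-3p and 0.38 for miR-9a-5p, so no direction is drawn for these.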

How the data were processed

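Hippocampal RNA of 14 rats was read on 14 gene expression and 14 miRNA arrays (Sham n = 2, other groups n = 3). The deposited scanner files hold processed signal intensities, which per the file headers were made with Agilent Feature Extraction 11.5.1.1, background subtraction included. The series tables hold the authors' processed intensities and served as an alternative. Control and outlier-flagged spots were left out, spots of a probe were averaged, and log2 values were taken after scaling an array to its 75th percentile, computed over probes above background. The filter on dim probes asked that some group have the probe above background on all of its arrays, which 17322 of 30367 met. Symbols came from RefSeq accessions (GRCr8), which matched 18643 probes. Groups were compared with limma 3.58.1 in R 4.3.3 (lmFit and eBayes, all 14 arrays in 1 fit), with Benjamini-Hochberg adjustment over all kept probes and a threshold of 0.05. The number of arrays limits the precision.

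The 9 genes and all lists were chosen with earlier results of these data known. All 9 genes are named, as are Cnp, Gpr17, Myrf, Nkx2-2, Ptprz1, Vcan, Pdgfa and Igf1 whatever their values. Some listed genes are not reported here by name. Of the wider lists, up to 8 called genes per direction with the largest differences are named, and the genes most like 4 patterns by Pearson's r (10 for the myelin proteins, 5 for each other pattern). Enpp2, the other markers and the panels of the plot of Gpr17, Bcan and other genes by array were chosen after their values were seen. Alternatives changed background correction (normexp with an offset of 50, run on the median spot signal because the files used here give no mean signal), scaling, the filter, flagged spots, blocks, the test and each array in turn. The methods' t-test used a fold limit of 1.2. The scripts were tested on simulated data.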

Additional observations from a re-analysis of the deposited data

Results flagged for a closer look

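Cd9, a tetraspanin on the mature myelin list, differed among the 3 drugs, with an adjusted p of 0.0158 in the limma F test. Its log2 level was −0.47, −0.47 and −0.90 with Zoloft, below the TBI arrays (−0.17, 0.35 and 0.06), the imipramine arrays (0.86, 0.72 and 0.40) and the Prozac arrays (0.42, 0.15 and 0.47). Against TBI, Cd9 differed by 0.58 with imipramine (adjusted p = 0.129), by 0.27 with Prozac (adjusted p = 0.671) and by −0.69 with Zoloft (adjusted p = 0.0974), none of which was called.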

How the results depend on the processing

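Numbers in brackets are the probes called over the whole array in the same setting. Between TBI and Sham, where Mobp was the 1 gene of the 9 called, normexp then quantile normalization called 3 (4685 of 17322 probes). The count was 0 without the filter on dim probes (1916 of 30367) and by the methods' t-test (3031 of 17322). It was also 0 by that test after Benjamini-Hochberg adjustment (0 of 17322). With an array left out the count ran from 0 to 1, and it was 0 without Sham replicate 1, Sham replicate 2, TBI replicate 1 or TBI replicate 3. Against Sham the drug groups had no call. For imipramine, quantile normalization called 1 (5198 of 17322 probes) and the 75th percentile over all probes 2 (5273). The series-table values called 2 (5231) and the methods' t-test 3 (5694). Leaving out an array gave 0 to 1, with 1 when TBI replicate 2 was left out (3804). For Prozac, the 75th percentile over all probes (3548), the series-table values (3486) and the methods' t-test (4134) each called 1. Leaving out an array gave 0 to 1, with 1 when TBI replicate 1 (3185) or TBI replicate 2 (2345) was left out. For Zoloft, normexp then quantile normalization (2207) and the methods' t-test (2278) each called 1. The cause was not tested. The counts were 0 in every setting run for each drug against TBI, for the F test and for the miRNAs, and no called difference of a gene named on the expression arrays changed direction in these settings, while some that were not called did. The series table, compared after the data were seen, turned the sign of 5 of 6 miRNA differences for imipramine and 3 of 6 for Zoloft against TBI. Second probes of Mag and Mobp gave other values, as reported. Replicate numbers did not pair the rats (correlation of deviations −0.23 to 0.23 over 26 pairs), and with the replicate block 1 gene was called between TBI and Sham, as without it. Over all probes, scaling by the 75th percentile over all probes changed the calls from 2879 to 4446 for TBI against Sham, from 494 to 58 for imipramine and from 239 to 824 for Zoloft against TBI, and from 551 to 78 in the F test. On the mature myelin list, counted under these settings after the data were seen, 0 to 7 genes were called lower between TBI and Sham beside 2 in the main setting. The calls over all probes in this comparison, in either direction, ran from 0 to 4685 across settings. Slide as a fixed term gives no comparison with Sham, and the t-test gives no value over the 3 drugs.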
